A study of Homo sapiens with 6 samples.

Results

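Genes of glycolysis and of the response to low oxygen were examined in HK-2 cells with and without a gene knockout, as a set of 40 genes chosen by symbol. The set holds 17 glycolytic enzymes, 4 glucose and lactate transporters, 6 regulators of flux at phosphofructokinase and pyruvate dehydrogenase, 2 alpha subunits of the hypoxia-inducible factor (HIF), and 11 further genes known as HIF targets. Of the 40, 39 were among the 16116 genes of the deposited gene table and 37 of the 12702 genes tested. CA9, a carbonic anhydrase gene widely used as a HIF marker, was not listed under that symbol and so was not analysed here. ALDOC, the aldolase of brain, had 5, 9 and 3 WT reads and 7, 11 and 6 knockout reads, by library. EGLN3, a HIF prolyl hydroxylase gene, had 1 read in each WT library, 1 in the first knockout library and 0 in the others. Neither passed the filter on low counts.

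HK-2 is a human kidney line, immortalised from proximal tubule cells. Bulk RNA-seq covered 3 libraries of WT cells and 3 of knockout (KO) cells, with no treatment or time given in the labels. The sample labels and the series title name FAM134B (current symbol RETREG1) as the gene knocked out, whereas the design text names TAX1BP1. The labels call the libraries of a group biological repeats without stating if each had its own culture, or if the KO is 1 clone, so p-values here measure spread that may be technical only.

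RETREG1 had 72, 80 and 73 reads in WT and 33, 27 and 28 in KO, and was lower in KO (39.7% of WT, adjusted p = 5.31e-07 by edgeR's quasi-likelihood test). TAX1BP1 had 2782, 2650 and 2542 reads in WT and 2684, 2563 and 2377 in KO, and the test did not call it (adjusted p = 0.533). The libraries held between 16796964 and 17127468 estimated reads. Of 14 proximal tubule markers, 6 were tested, 1 higher and 2 lower in KO. On the TPM scale (a level scaled to transcript length and library size), PAX8 stood at 227.9 in WT and 271.0 in KO (called higher), GGT1 at 190.6 and 188.4 (not called), SLC4A4 at 12.1 and 4.67 and SLC3A1 at 5.63 and 4.21 (both called lower), and LRP2, CUBN, SLC34A1, AQP1 and ANPEP under 0.1. Of the 4 tested epithelial markers, KRT8 (514.3 TPM in WT and 319.7 in KO), KRT18 (560.8 and 480.1) and KRT19 (5.34 and 0.067) were lower and EPCAM (145.0 and 173.8) higher, while CDH1 lay under 0.1 TPM. Of the markers of other cell types, COL1A1 was at 7.87 TPM in WT and 5.73 in KO (called lower) and CD68 at 30.1 and 30.8 (not called), and PTPRC, PECAM1, TEK, PDGFRA, PDGFRB and COL3A1 lay under 0.3 TPM in both groups. The part of these marker differences in the results was not tested. With bulk RNA, fewer cells of a kind and less RNA per cell cannot be told apart.

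Glycolysis turns glucose into pyruvate in the cytosol. Pyruvate is either reduced to lactate and exported, or enters mitochondria through the pyruvate dehydrogenase complex, which the PDK kinases switch off. HIF is a dimer of an oxygen-labile alpha subunit and a stable beta subunit. In low oxygen the alpha subunit escapes hydroxylation by the EGLN enzymes and degradation through VHL, and the dimer binds the core letters ACGTG or GCGTG and raises transcription of many glycolytic genes, of glucose and lactate carriers, and of genes for blood vessel growth, mitophagy and collagen modification. Oxygen control of HIF alpha is largely at the protein level, which RNA-seq does not measure.

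More members were higher than lower in KO, with small changes in both directions. Of the 37 tested members, 16 rose, 4 fell and 17 were not called at an adjusted p of 0.05 by edgeR. Over all genes tested, 36.8% were called, 18.7% as higher and 18.1% as lower, against 54.1%, 43.2% and 10.8% of the members. The median log2 fold change was 0.11 over the members and -0.001 over all genes. Only SLC2A3 changed by 2-fold or more among the members, 16 of the 20 called members changed by less than 1.5-fold, and the median size of a called change was 0.41 on the log2 scale for members and 0.35 for all called genes. In 25 of the 37 members the KO and WT libraries did not overlap, 67.6%, against 46.3% of all genes tested. The members share regulators and were chosen with results of these data known, so these shares are a description.

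**Figure D1:**
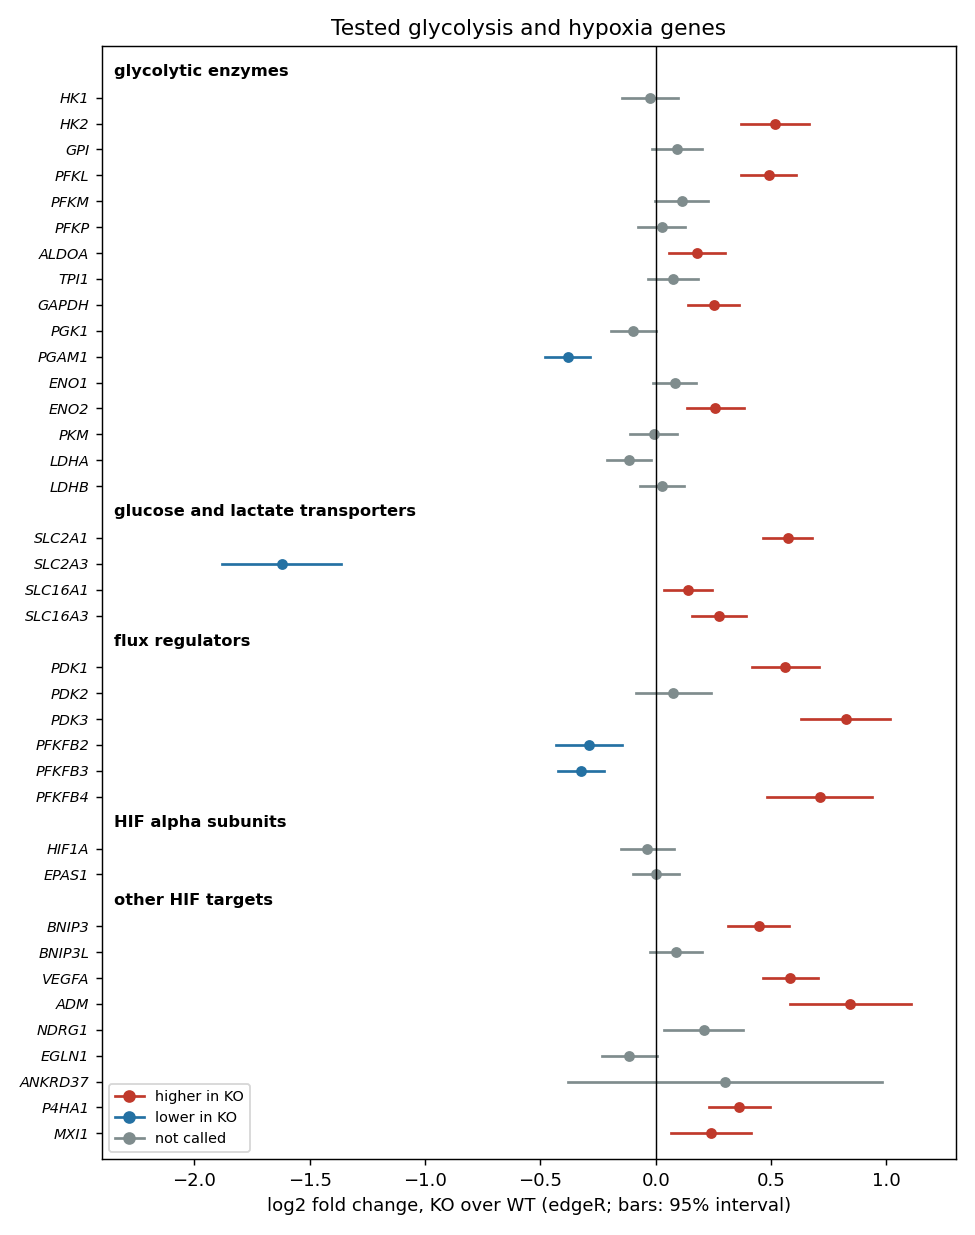
The log2 change of KO over WT is plotted for the 37 tested members by role, with bars for the 95% interval of the edgeR fit. Red points are higher in KO (16 genes), blue points lower (4 genes) and grey points not called (17 genes), and SLC2A3 at -1.62 lies farthest from 0.

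The promoters of 5 members are shown because they carry, by role, the largest rises among called genes with a single listed start (ADM, PDK3, SLC2A1, PFKL) and the lowest called gene of that kind (PGAM1). Each is the 250 bases before the RefSeq start on GRCh38.p14, written 5′ to 3′ on the strand of the gene, and capitals mark ACGTG or GCGTG on that strand or its reverse complement.
ADM, chr11:10304823-10305072, plus strand: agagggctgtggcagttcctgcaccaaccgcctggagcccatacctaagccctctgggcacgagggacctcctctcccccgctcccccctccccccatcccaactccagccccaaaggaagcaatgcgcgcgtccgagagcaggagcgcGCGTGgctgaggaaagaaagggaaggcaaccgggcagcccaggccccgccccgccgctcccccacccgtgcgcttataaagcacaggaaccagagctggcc
PDK3, chrX:24465036-24465285, plus strand: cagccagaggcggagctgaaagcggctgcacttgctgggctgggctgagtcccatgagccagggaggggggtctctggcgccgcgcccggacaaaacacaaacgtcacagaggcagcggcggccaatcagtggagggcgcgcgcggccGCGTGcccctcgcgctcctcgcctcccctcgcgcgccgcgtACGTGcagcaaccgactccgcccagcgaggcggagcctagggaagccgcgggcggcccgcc
SLC2A1, chr1:42958869-42959118, minus strand: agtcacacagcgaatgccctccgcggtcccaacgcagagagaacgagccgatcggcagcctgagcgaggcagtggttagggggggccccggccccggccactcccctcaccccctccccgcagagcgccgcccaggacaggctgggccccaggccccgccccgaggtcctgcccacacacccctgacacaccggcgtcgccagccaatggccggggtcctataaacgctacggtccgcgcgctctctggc
PFKL, chr21:44299803-44300052, plus strand: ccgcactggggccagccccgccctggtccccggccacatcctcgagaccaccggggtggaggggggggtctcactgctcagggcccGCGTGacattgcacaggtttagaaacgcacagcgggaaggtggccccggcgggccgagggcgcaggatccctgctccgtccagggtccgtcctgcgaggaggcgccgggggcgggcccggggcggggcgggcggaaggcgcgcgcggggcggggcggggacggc
PGAM1, chr10:97427568-97427817, plus strand: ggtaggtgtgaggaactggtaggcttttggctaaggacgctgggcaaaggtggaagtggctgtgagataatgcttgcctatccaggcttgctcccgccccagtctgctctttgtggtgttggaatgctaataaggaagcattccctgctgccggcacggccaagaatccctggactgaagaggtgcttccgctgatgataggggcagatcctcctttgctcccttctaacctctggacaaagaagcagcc

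The match starts 101 bases before the start of ADM, 102 and 61 before that of PDK3 and 164 before that of PFKL, and the windows of SLC2A1 and PGAM1 hold none. Over both strands, the letters occur in 43.2% of the 35116 promoter windows of the RefSeq table and in 58.5% of the 65 windows of the 34 members found in it. Counted by gene, 47.4% of the genes with a window and 29 of the 34 members have a match in at least 1 window. A match was present for 13 of the 14 called higher, 1 of the 2 called lower and 13 of the 15 not called, so members that rose and members that were not called hold the letters about equally often. ACGTG also lies within the E-box CACGTG, which other factors bind. SLC2A3, SLC16A1, PFKFB2, BNIP3L, VEGFA and NDRG1 were not matched.

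Among the enzymes, 16 were tested, of which 5 rose, 1 fell and 10 were not called. The share called, 37.5%, is close to the 36.8% of all genes tested. The rises lay at the hexokinase, phosphofructokinase, aldolase, glyceraldehyde phosphate dehydrogenase and enolase steps, and the fall at phosphoglycerate mutase. The deposited counts give levels as CPM (reads scaled to library size, with TMM factors), which are used per library below. HK2, the inducible hexokinase that traps glucose as glucose 6-phosphate, had 22.6, 21.6 and 23.2 CPM in WT and 30.9, 32.7 and 32.8 in KO. Every KO library lay above every WT library, and the log2 fold change was 0.52 (SE 0.07, adjusted p = 1.17e-06 by edgeR). HK1, the constitutive hexokinase, differed by -0.03 (95% interval -0.14 to 0.09) and its groups overlapped.

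PFKL, the liver form of phosphofructokinase, which commits sugar to glycolysis, had 180.7, 185.1 and 187.4 CPM in WT and 231.4, 262.7 and 282.7 in KO. The KO libraries were all higher and more spread than the WT libraries, with a log2 change of 0.49 (SE 0.06, adjusted p = 9.14e-08 by edgeR). The muscle and platelet forms, PFKM and PFKP, differed by 0.11 and 0.03 and were not called.

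GAPDH, which makes the first NADH of the pathway and is named in the labels' protocol as the internal control for qPCR, was the most abundant member. It had 5252, 5684 and 5827 CPM in WT and 6148, 6718 and 7090 in KO. All 3 KO libraries lay above all 3 WT libraries, with a log2 change of 0.25 (SE 0.05, adjusted p = 3.93e-04 by edgeR), and the value lay between 0.20 and 0.31 in all 16 alternative fits. ENO2, the neuronal enolase, was low beside ENO1 and rose by 0.26 on the log2 scale (adjusted p = 0.00115 by edgeR), without overlap. ALDOA, which splits fructose 1,6-bisphosphate, rose by 0.18 (adjusted p = 0.0188 by edgeR) with overlapping libraries, and its call was lost in 7 of the 16 alternatives, including those without WT library 1, KO library 2 or KO library 3 (adjusted p up to 0.149).

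PGAM1, which moves the phosphate of 3-phosphoglycerate, had 812.3, 886.6 and 869.6 CPM in WT and 647.3, 656.2 and 668.5 in KO. The KO libraries were all lower and close together, with a log2 change of -0.38 (SE 0.05, adjusted p = 2.47e-07 by edgeR). Of the enzymes that were not called, PGK1 and LDHA also had all KO libraries below all WT libraries. PGK1, which makes ATP in the step before PGAM1, had a log2 change of -0.10 (adjusted p = 0.112 by edgeR). LDHA, which reduces pyruvate to lactate, had a log2 change of -0.11 (adjusted p = 0.0525 by edgeR). LDHA was called lower in 10 of the 16 alternatives. ENO1, the abundant enolase, had all KO libraries above all WT libraries, with a log2 change of 0.08 (adjusted p = 0.174). GPI, TPI1 and LDHB lay between 0.03 and 0.09, and PKM, pyruvate kinase, at -0.01 (95% interval -0.11 to 0.09). PGAM1, GAPDH, ENO1, PGK1, TPI1, LDHA, LDHB and ALDOA have near-identical processed copies elsewhere in the genome, and how the authors' counting split reads among them is not given in the sources used here.

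The summed level of the enzymes was 24855, 25922 and 25691 TPM in WT and 26526, 27556 and 27959 TPM in KO. The KO sums were all higher. GAPDH made up 41.3% ± 0.84 (SD, n = 3) of that sum in WT and 45.1% ± 0.85 (SD, n = 3) in KO. Without GAPDH the sums were 14829, 15074 and 14975 TPM in WT and 14802, 15141 and 15127 TPM in KO, and the groups overlapped.

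All 4 transporters were called, in different directions, against 36.8% of all genes tested. SLC2A1 (GLUT1), the widespread basal glucose carrier, had 144.5, 158.7 and 151.9 CPM in WT and 217.0, 233.6 and 226.0 in KO. The groups stood well apart, with a log2 change of 0.57 (SE 0.05, adjusted p = 6.09e-10 by edgeR). SLC2A3 (GLUT3), a glucose carrier of higher affinity, had 10.8, 9.85 and 12.4 CPM in WT and 3.58, 3.69 and 3.44 in KO, or 169 to 208 reads against 58 to 62.

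Each KO library of SLC2A3 lay below each WT library, at 32.5% of the WT level, with a log2 change of -1.62 (SE 0.13, adjusted p = 2.74e-11 by edgeR). SLC2A14 is a close paralog of SLC2A3, and reads common to both may be divided by the counting. The lactate exporter SLC16A3 (MCT4) rose by 0.28 (adjusted p = 3.25e-04 by edgeR). SLC16A1 (MCT1), a lactate and pyruvate carrier, rose by 0.14 (adjusted p = 0.0327 by edgeR), and this call was lost in 8 of the 16 alternatives (adjusted p up to 0.287), among them those without KO library 1 or 2 or WT library 2 or 3. Per length, the transporters summed to 483.3 ± 14.7 TPM (SD, n = 3) in WT and 575.5 ± 8.2 TPM (SD, n = 3) in KO.

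**Figure D2:**
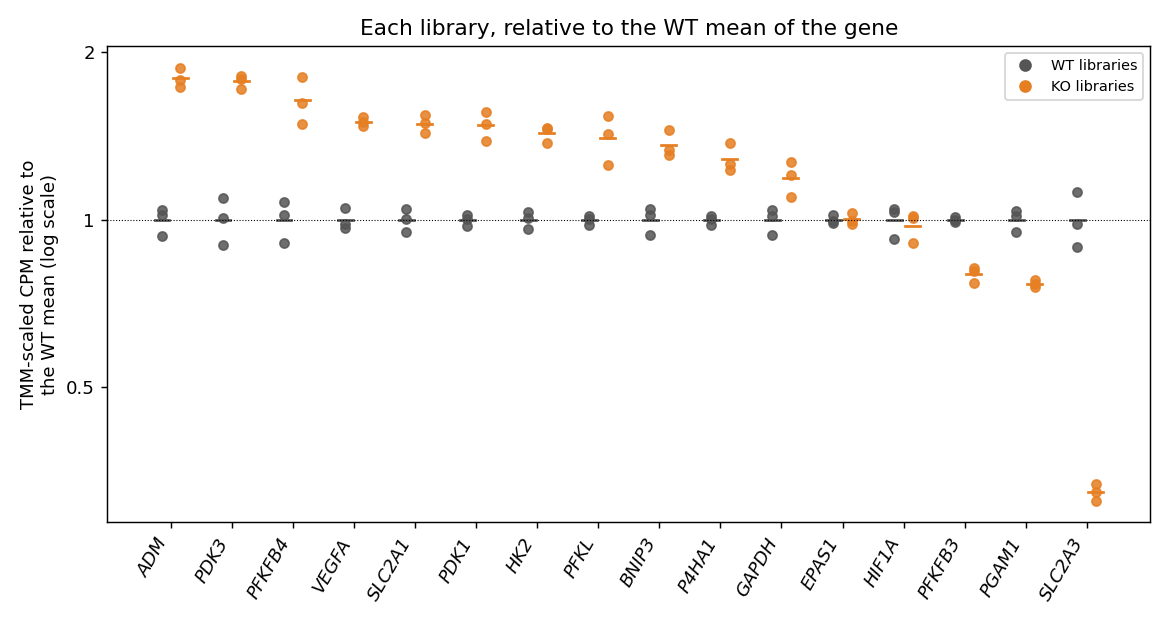
Each point is the TMM-scaled CPM of 1 library divided by the WT mean of the gene, on a log axis, for the called members with a log2 fold change of at least 0.3 in size plus GAPDH, HIF1A and EPAS1. Short lines are group means; the KO points lie above the WT points for ADM through GAPDH, mix with them for EPAS1 and HIF1A, and lie below them for PFKFB3, PGAM1 and SLC2A3.

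Of the 6 flux regulators, 3 rose, 2 fell and 1 was not called, or 83.3% called against 36.8% of all genes tested. The PDK kinases phosphorylate and switch off pyruvate dehydrogenase. PDK1 had 25.7, 25.3 and 24.6 CPM in WT and 39.3, 37.5 and 34.9 in KO, with a log2 change of 0.56 (SE 0.07, adjusted p = 2.37e-07 by edgeR). PDK3 had 9.45, 10.3 and 8.44 CPM in WT and 16.98, 16.12 and 16.75 in KO, with a log2 change of 0.82 (SE 0.09, adjusted p = 4.35e-08 by edgeR). For both kinases every KO library was above every WT library, whereas PDK2 differed by 0.08 (95% interval -0.09 to 0.24) with overlapping groups. On the authors' length-scaled values PDK3 rose less, from 3.67 to 4.77 TPM, and its log2 fold change was 0.30 with limma on log2(TPM + 1), still called.

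The PFKFB enzymes make and break fructose 2,6-bisphosphate, the main activator of phosphofructokinase. PFKFB3 had 331.2, 323.9 and 326.3 CPM in WT and 252.0, 268.1 and 264.2 in KO, with a log2 change of -0.32 (SE 0.05, adjusted p = 3.56e-06 by edgeR). PFKFB4 had 5.93, 6.64 and 7.01 CPM in WT and 9.71, 10.6 and 11.8 in KO, with a log2 change of 0.71 (SE 0.11, adjusted p = 8.35e-06 by edgeR). The libraries of KO were thus all below WT for the abundant PFKFB3 and all above for the scarce PFKFB4. PFKFB2, the heart form, fell by 0.29 on the log2 scale (adjusted p = 0.00162 by edgeR), also without overlap. The summed level of the flux regulators was 202.8 ± 3.3 TPM (SD, n = 3) in WT and 176.8 ± 2.9 TPM (SD, n = 3) in KO, lower in all 3 KO libraries although 3 of the 6 rose. PFKFB3 alone made up most of this sum, at 147.7 TPM in WT and 115.5 TPM in KO.

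Neither HIF alpha subunit was called. HIF1A had 302.3, 305.2 and 269.5 CPM in WT and 296.3, 294.1 and 265.0 in KO, with a log2 change of -0.04 (95% interval -0.15 to 0.08, adjusted p = 0.652 by edgeR). EPAS1, which encodes HIF-2 alpha, had 206.8, 204.5 and 211.7 CPM in WT and 203.9, 206.5 and 213.5 in KO, with a log2 change of 0.002 (95% interval -0.10 to 0.10, adjusted p = 0.977 by edgeR). The libraries of the groups were mixed for both genes. The count was 0 of 2 at an unadjusted p under 0.05 by edgeR too, and 0 of 2 by DESeq2 and limma.

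Of the 9 tested genes known as HIF targets outside glycolysis, 5 rose, 0 fell and 4 were not called. The share called was 55.6%, against 36.8% of all genes tested (18.7% higher and 18.1% lower). At an unadjusted p under 0.05 by edgeR 6 were higher and 0 lower, and DESeq2 called 4 higher and 0 lower. ADM, the vasodilator peptide adrenomedullin, had 4.17, 4.08 and 3.74 CPM in WT and 6.91, 7.49 and 7.13 in KO, from 63 to 71 reads against 116 to 126. It had the largest rise of the set, with a log2 change of 0.84 (SE 0.13, adjusted p = 4.99e-06 by edgeR) and no overlap.

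VEGFA, the endothelial growth factor, had 50.6, 49.8 and 54.2 CPM in WT and 78.8, 75.8 and 77.0 in KO. The groups stood well apart, with a log2 change of 0.58 (SE 0.06, adjusted p = 3.93e-09 by edgeR). The genes beside VEGFA on chromosome 6 were also higher. Among the 12 nearest tested genes on each side, 23 of 24 were called higher and 1 lower, with a median log2 change of 0.54, and the median of all tested genes on that chromosome was 0.26. The part of this neighbourhood in the VEGFA value was not tested.

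For the other 19 called members the neighbours' median lay between -0.10 and 0.18. SLC2A1 and SLC16A1, on chromosome 1 with a median of 0.12 over its tested genes, had neighbour medians of 0.10 and 0.09. PFKFB2 fell although its neighbours' median was 0.18. Of the 37 tested members, 6 lay on chromosomes 1 and 6. With these left out, 13 members were called higher and 3 lower. The share of all tested genes called outside these chromosomes was not computed, so these counts have no background beside them.

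**Figure D3:**
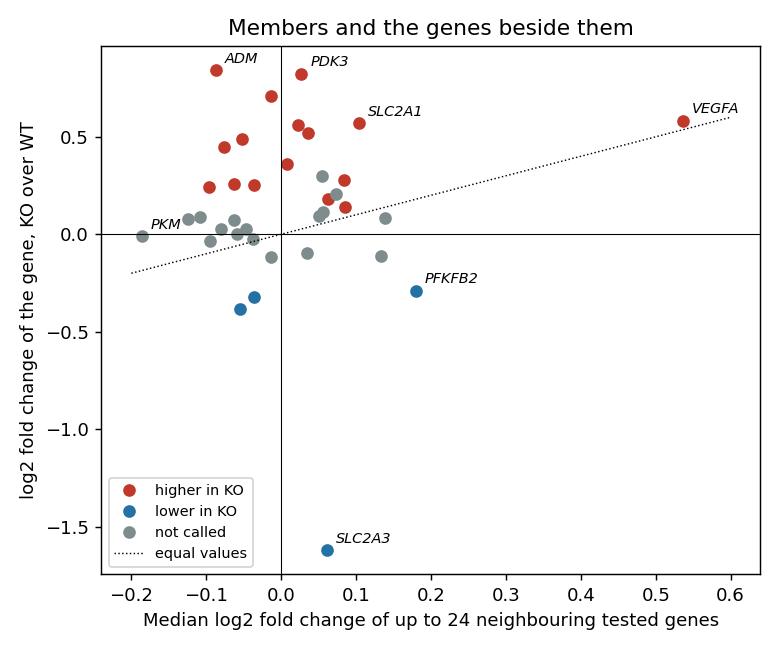
The log2 change of each tested member (vertical axis) is plotted against the median log2 change of up to 24 tested genes nearest to it on the chromosome (horizontal axis), with the dotted line at equal values. VEGFA stands alone at the right with a neighbour median of 0.54, and the other called members have medians between -0.10 and 0.18.

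BNIP3, a mitophagy receptor, had 39.8, 44.4 and 43.2 CPM in WT and 61.5, 55.6 and 56.8 in KO, and its log2 fold change was 0.45 (SE 0.07, adjusted p = 2.30e-06 by edgeR). P4HA1, the catalytic subunit of collagen prolyl hydroxylase, had 40.1, 39.7 and 38.7 CPM in WT and 54.1, 49.7 and 48.6 in KO, and its log2 fold change was 0.36 (SE 0.06, adjusted p = 4.38e-05 by edgeR). For both genes each KO library lay above each WT library. MXI1, a MYC antagonist, rose by 0.24 (adjusted p = 0.0262 by edgeR), a call lost in 9 of the 16 alternatives (adjusted p up to 0.173), among them DESeq2 and the fits without KO library 1 or 2 or WT library 1 or 3.

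NDRG1, a stress-response gene, differed by 0.21 and was not called (adjusted p = 0.0505 by edgeR), although its groups did not overlap and 6 of the 16 alternatives called it higher. BNIP3L, the paralog of BNIP3 in mitophagy, differed by 0.09, EGLN1, the main HIF prolyl hydroxylase, by -0.11, and ANKRD37, an ankyrin repeat gene with under 1 CPM, by 0.30 with an interval of -0.38 to 0.98. The summed level of the listed genes of this role was 235.8 ± 6.0 TPM (SD, n = 3) in WT and 287.6 ± 15.1 TPM (SD, n = 3) in KO.

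Shares among paralogs were computed from TPM, with an exact two-sided permutation test over the 6 libraries whose smallest possible p is 0.1. The HK2 share of HK1 and HK2 was 13.0%, 14.0% and 14.0% in WT and 19.0%, 18.8% and 18.5% in KO (exact p = 0.1). The PFKL share of the phosphofructokinases was 24.6%, 25.3% and 24.6% in WT and 29.6%, 31.1% and 31.9% in KO (exact p = 0.1), while that of PFKP went from a mean of 55.0% to 49.7%. The shares of HK1, HK2, PFKL and PFKP did not overlap between the groups. Those of PFKM did, with a mean of 20.2% in WT and 19.4% in KO (exact p = 0.4). The major forms were still HK1 and PFKP in every library.

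SLC2A3 held 6.12%, 5.15% and 6.63% of the summed SLC2A1 and SLC2A3 level in WT and 1.42%, 1.36% and 1.31% in KO (exact p = 0.1). PDK1 held 33.9%, 32.6% and 29.4% of the PDK sum in WT and 39.2%, 40.2% and 39.0% in KO (exact p = 0.1), and PDK2 went from a mean of 57.8% to 49.4%. PFKFB4 held a mean of 2.18% of the PFKFB sum in WT and 4.41% in KO, and PFKFB3 88.5% and 86.4%. These shares did not overlap between the groups, and PDK2 and PFKFB3 were still the largest. The shares of PDK3, with means of 10.2% in WT and 11.1% in KO (exact p = 0.3), overlapped. So did those of PFKFB2, with means of 9.33% in WT and 9.17% in KO (exact p = 0.8).

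LDHA held 19.1% ± 0.33 (SD, n = 3) of lactate dehydrogenase RNA in WT and 17.6% ± 0.31 (SD, n = 3) in KO, and the KO shares were all lower (exact p = 0.1). BNIP3 held 59.6% ± 1.8 (SD, n = 3) of the BNIP3 and BNIP3L sum in WT and 65.6% ± 1.0 (SD, n = 3) in KO. The shares of HIF1A against EPAS1, 65.2% in WT and 64.6% in KO, and of SLC16A3 against SLC16A1, 63.2% in WT and 65.4% in KO, overlapped between the groups (exact p = 0.5 each).

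**Figure D4:**
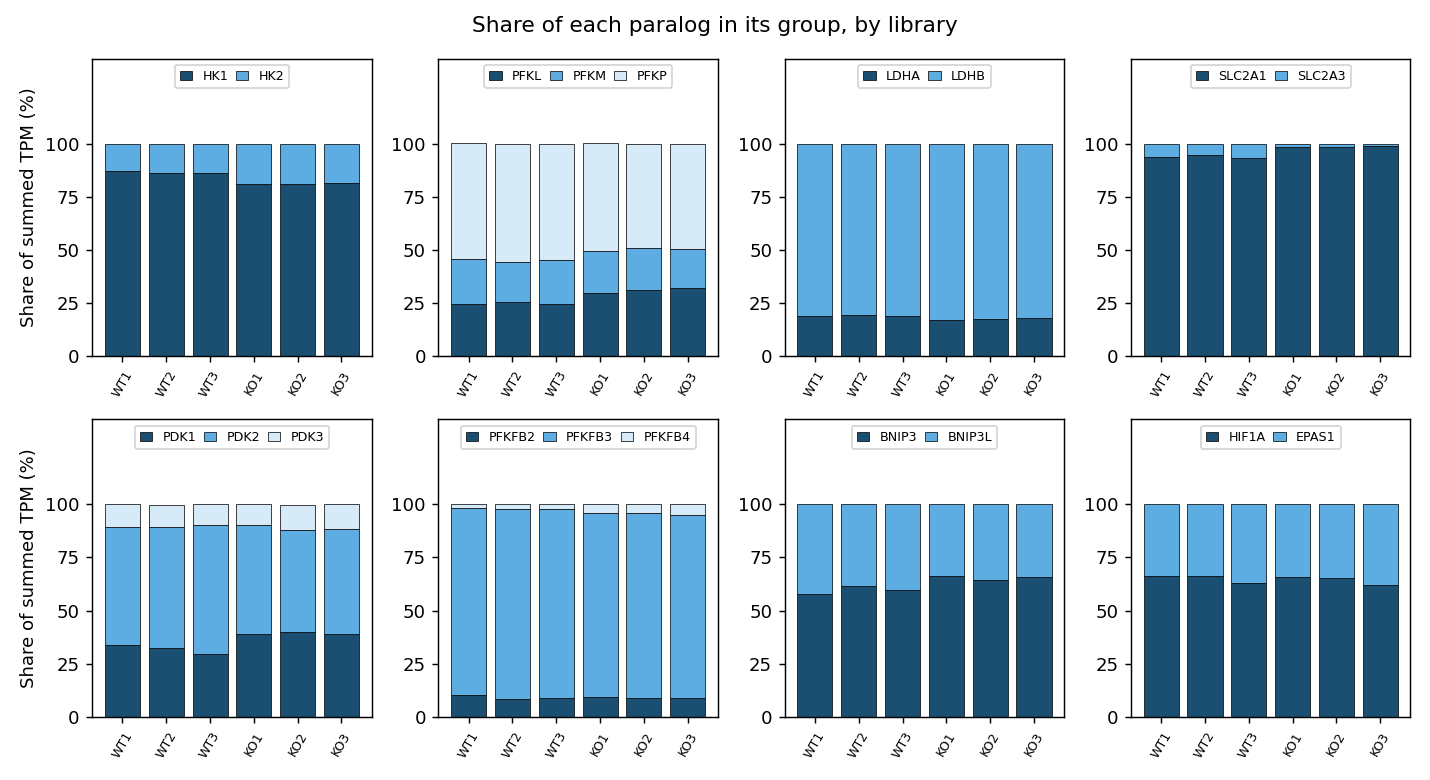
Stacked bars show, for each of the 6 libraries, the percent of summed TPM that each paralog contributes in 8 families. The HK2, PFKL, PDK1, PFKFB4 and BNIP3 segments are larger in all 3 KO libraries than in all 3 WT libraries, the LDHA and SLC2A3 segments are smaller, and HIF1A against EPAS1 is mixed.

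At the level of transcript models, 207 models of the members were listed and 141 tested, and 7 were called, 4 higher and 3 lower. Some models, such as NM_005566 of LDHA and NM_003051 of SLC16A1, were listed again as copies with identical estimated reads. Each copy is counted in these numbers. That is 4.96% of the members' models, against 2.13% of all 44030 tested models (1.14% higher and 0.99% lower). The models that rose were those of BNIP3, SLC2A1, PFKL (NM_002626) and PDK3 (NM_001142386), and those that fell were those of SLC2A3, PGAM1 (NM_002629) and PFKFB3 (NM_004566). Without 1 library the count was 0 to 3: 0 without KO library 2 or 3, 1 without WT library 3, 2 without KO library 1 or WT library 1, and 3 without WT library 2.

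The PDK3 rise lay in the model NM_001142386, which had 127.5, 142.0 and 107.0 estimated reads in WT and 254.2, 229.0 and 247.5 in KO (log2 fold change 0.96, SE 0.15, adjusted p = 0.0397 by edgeR). The other PDK3 model, NM_005391, had 33.5, 34.1 and 35.0 reads in WT and 30.8, 42.0 and 34.5 in KO, and its groups overlapped. By TPM the share of NM_001142386 was 29.7% ± 3.4 (SD, n = 3) in WT and 44.0% ± 5.2 (SD, n = 3) in KO, without overlap.

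For PFKFB3, the main model NM_004566 fell from a mean of 4319 to 3206 reads (log2 fold change -0.42, SE 0.05, adjusted p = 0.0216 by edgeR). NM_001145443 differed in the other direction, from a mean of 596.1 to 732.3 reads, and was not called (adjusted p = 0.706 by edgeR). Its share of PFKFB3 was 11.1%, 10.1% and 12.7% in WT and 13.5%, 20.6% and 18.3% in KO, without overlap. For P4HA1, the share of NM_000917 was 45.6% ± 4.2 (SD, n = 3) in WT and 51.5% ± 1.5 (SD, n = 3) in KO, also without overlap.

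PKM was almost wholly NM_002654, the PKM2 form, at 98.4% ± 0.16 (SD, n = 3) in WT and 98.4% ± 0.20 (SD, n = 3) in KO. Model estimates for VEGFA varied between libraries of 1 group: NM_001317010 had 5.51, 210.3 and 424.2 reads in WT and 1.09, 3.87 and 293.0 in KO, so no VEGFA model is compared.

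Genes around the pathway that are not members were counted in 5 further lists. Of 12 tested regulators of HIF, 4 were higher and 1 lower in KO, 41.7% called against 36.8% of all genes tested, and only 2 were higher without WT library 2. ARNT, the beta subunit of HIF, rose by 0.30 on the log2 scale (SE 0.06, adjusted p = 2.71e-04 by edgeR), VHL, which marks HIF alpha for degradation, by 0.23 (adjusted p = 0.00699), and CITED2, which competes with HIF alpha for its coactivator, by 0.18 (adjusted p = 0.00300). The VHL call was lost in 4 of the 16 alternatives, those on TPM and that without WT library 2. Of the 24 tested genes nearest ARNT on chromosome 1, 10 were called higher and 0 lower, with a median log2 change of 0.14. Those nearest VHL and CITED2 had medians of -0.003 and -0.11. The part of the neighbourhood in the ARNT value was not tested. ARNT2, a relative of ARNT, had 23, 19 and 24 reads in WT and 4, 0 and 0 in KO (adjusted p = 1.16e-06 by edgeR).

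Of 23 further HIF targets tested, 6 were higher and 6 lower, 52.2% called against 36.8% of all genes tested. ANGPTL4, a secreted lipase inhibitor, had 3.52, 3.26 and 3.51 CPM in WT and 9.83, 11.8 and 13.2 in KO, a log2 change of 1.76 (SE 0.13, adjusted p = 1.20e-11 by edgeR). AK4, a mitochondrial adenylate kinase, rose by 0.59 (adjusted p = 8.06e-10 by edgeR). Of the 24 tested genes nearest AK4 on chromosome 1, 8 were called higher and 2 lower, with a median log2 change of 0.14. P4HA2, the partner gene of P4HA1 in collagen hydroxylation, fell by 0.53 (adjusted p = 1.35e-07 by edgeR), and IGFBP3, a binding protein of insulin-like growth factors, fell by 0.49 (adjusted p = 8.26e-09 by edgeR). P4HA1 and P4HA2 thus differed in opposite directions.

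Of 10 further genes of glycolysis, glycogen and gluconeogenesis tested, 2 were higher and 2 lower, 40.0% called against 36.8% of all genes tested. PC, pyruvate carboxylase, rose by 0.67 (adjusted p = 3.30e-05 by edgeR) and PCK2, the mitochondrial PEP carboxykinase, by 0.23 (adjusted p = 0.00207). TIGAR, which breaks down fructose 2,6-bisphosphate, fell by 0.49 (adjusted p = 2.78e-06 by edgeR), and ADPGK, an ADP-dependent glucokinase, by 0.26 (adjusted p = 7.63e-04).

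Of 10 genes for pyruvate entry into mitochondria, 3 were higher and 1 lower, 40.0% called against 36.8% of all genes tested. With DESeq2, with limma on log2(TPM + 1), and without KO library 2, KO library 3 or WT library 3, the counts were 1 higher and 1 lower. PDHA1 and PDHB, which encode the alpha and beta subunits of pyruvate dehydrogenase E1, differed in opposite directions, by 0.18 (adjusted p = 0.00800 by edgeR) and -0.23 (adjusted p = 0.00647 by edgeR). PDP1, the phosphatase that reverses PDK action, rose by 0.19 (adjusted p = 0.0220), and MPC2, a subunit of the mitochondrial pyruvate carrier, by 0.15 (adjusted p = 0.0436). The PDP1 call was lost in 9 of the 16 alternatives, among them those without KO library 2 or 3 or WT library 2 or 3, and the MPC2 call in 12, among them those without any 1 library other than WT library 2.

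Of 4 tested glucose-sensing genes, 3 rose and 0 fell, where 18.7% of all genes tested were called higher and 18.1% lower. The counts were the same at an unadjusted p under 0.05 by edgeR, and 2 and 0 by DESeq2. ARRDC4, the tested gene that was not called, differed by -0.03 on the log2 scale (adjusted p = 0.909 by edgeR), with overlapping groups. MLXIPL did not pass the filter on low counts. TXNIP, which restrains glucose uptake and is itself induced by glucose, had 42.9, 38.3 and 42.5 CPM in WT and 84.3, 68.4 and 76.5 in KO, with a log2 change of 0.89 (SE 0.07, adjusted p = 4.11e-11 by edgeR). MLXIP and its partner MLX, transcription factors that respond to glucose 6-phosphate, rose by 0.25 (adjusted p = 6.21e-04 by edgeR) and 0.23 (adjusted p = 0.0147 by edgeR). All KO libraries lay above all WT libraries for each of these 3 genes, and the MLX call was lost in 4 of the 16 alternatives (DESeq2 and those without KO library 2, WT library 1 or WT library 2). The tested genes nearest TXNIP on chromosome 1 had a median log2 change of 0.17, with 9 of 24 called higher. Those nearest MLXIP and MLX had medians of 0.006 and 0.011.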

How the data were processed

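Bulk RNA-seq of 6 HK-2 libraries was analysed from the deposited gene and transcript tables. The authors deposited each estimated count (expected count) of reads per feature, unscaled, and the authors also deposited TPM and FPKM values per library, scaled to transcript length and library size. The submitters' processing notes name HISAT2 2.0.1, cutadapt 1.9.1, Cuffdiff 2.2.1, FastQC 0.10.1, bcl2fastq 2.17.1.14 and the build GRCh37. The read counter, the kit and the strand setting were not given in the sources used, so reads of overlapping antisense genes cannot be told apart. Counts, of which 13.0% to 14.0% in a library were not whole, were rounded. Genes passing filterByExpr (minimum count 10, minimum total 15) entered edgeR 4.0.16 (R 4.3.3; TMM, robust quasi-likelihood test, Benjamini-Hochberg over all 12702 genes, threshold 0.05), and transcripts in the same way. SE values were derived from the F statistic. Libraries of a group differed from each other beyond sampling noise. DESeq2 1.42.0 and limma 3.58.1 served as alternatives. Gene order and chromosomes came from RefSeq (GRCh38.p14) by gene number, for 12682 of the tested genes. Every member was accounted for; library values are given for called members with a log2 fold change of at least 0.3 in size, for the HIF alpha genes, for GAPDH (added after its values were seen), and as reads for members under the filter, and up to 4 called genes of smallest adjusted p are named per further list, 3 of them (ANGPTL4, TXNIP and ARNT2, chosen after their values were seen) with library values. Of the glucose-sensing list, ARRDC4 (not called) and MLXIPL (under the filter) are named too. The members and lists were chosen with earlier results of these data known.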

Additional observations from a re-analysis of the deposited data

How the results depend on the processing

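Of the 20 called members, 17 kept their direction and call in all 16 alternatives (other scalings, DESeq2, limma on TPM or FPKM, other filters, the replicate block, each library left out), and ALDOA, SLC16A1 and MXI1 did not. No scaling moved the median of all genes by more than 0.03 on the log2 scale. LDHA, not called here, was called lower in 10 of the 16 alternatives, for example at -0.11 with DESeq2 (adjusted p = 0.0259). With 1 library left out, it was called only in the fit without WT library 2. The deviations of same-numbered libraries correlated at 0.38, 0.02 and 0.32. Those of WT library 1 with KO library 3 and of WT library 3 with KO library 1 correlated at -0.36 and -0.33. The second libraries did not correlate best with each other. Whether the replicate numbers pair the samples was not settled. With the replicate number as a block, 20 members were called higher and 7 lower, 5947 genes were called in all, and 1 member transcript. Leaving out each library in turn gave 14 to 17 members higher, 4 to 5 lower and 0 to 3 transcripts. Values that changed sign were near 0 and not called. Over the 6 fits with 1 library left out, the log2 fold change ran from -0.0733 to 0.0165 for HK1, from -0.0107 to 0.0593 for PFKP, from -0.0432 to 0.0347 for PKM, from -0.0006 to 0.048 for LDHB, from -0.093 to 0.0142 for HIF1A and from -0.017 to 0.017 for EPAS1. PFKP was also at -0.0085 in the 3 limma fits on TPM, and EPAS1 at -0.0041 with the 5 CPM filter, -0.0044 with upper-quartile factors, -0.0205 with FPKM, and -0.0331 (pseudocount 0.1) and -0.0327 (pseudocount 1) with TPM. The causes were not tested. At this depth 3 reads lie at 0.175 to 0.179 CPM, and members with so few reads were not compared.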
